A study of Homo sapiens with 6 samples.

Results

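Decapping and 5′-to-3′ decay of mRNA were followed through 9 genes that encode the decapping enzyme DCP2, its partners DCP1A, DCP1B, EDC3 and EDC4, the activators LSM1, PATL1 and DDX6, and the exoribonuclease XRN1. Members were taken by gene identifier, and the table held 82 transcripts of these 9 genes among 207167 transcripts of 63190 genes. RNA-seq of HEK293 cells, a human embryonic kidney line, compared 3 libraries of cells that overexpressed the D391N mutant of DIS3L2 (called D391N here) with 3 libraries of control cells. The study's methods describe the lines as HEK293T-Rex FlipIn, in which an integrated construct is switched on with doxycycline, and D391N as a catalytically inactive form of the 3′-to-5′ exoribonuclease DIS3L2. Whether the control cells were given doxycycline is not stated. Each condition was 1 line, so the construct and the line cannot be told apart. No source used here says that the libraries came from separate cultures, so the p-values measure the spread between these libraries, which may be technical.

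Bulk decay of a eukaryotic mRNA usually starts with shortening of the poly(A) tail and can then take either of 2 directions. In the 5′-to-3′ direction, the LSM1-LSM7 ring and PATL1 bind the shortened tail, DDX6 and the EDC proteins help DCP2 to cleave the cap, and XRN1 degrades the uncapped body. In the other direction the exosome and DIS3L2 degrade RNA from its 3′ end, and DIS3L2 prefers ends that carry added uridines. The LSM1-LSM7 ring also binds oligouridylated ends, so both directions can meet on the same tail. The measurements below are RNA levels of the genes for these proteins and say nothing of decay rates or protein amounts.

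Levels are RPKM, reads scaled to transcript length and library size, obtained from the deposited natural log values. RPKM corrects for transcript length, and the gene level used here is the sum over a gene's transcripts. BitSeq, the program that made the values, divides reads shared by several transcripts among them, so levels of transcripts with much common sequence depend on each other. The posterior variance that came with each value was turned into an estimated number of reads behind it. Relative depth was taken from transcripts without reads. Control replicate 2 was the deepest, and the other 5 libraries had 0.664 to 0.94 of its depth. DIS3L2 was at 449 ± 73.0 RPKM (SD, n = 3) in D391N and at 13.1 ± 1.40 RPKM (SD, n = 3) in control libraries, in the direction the labels give. D391N replicate 1 set the number of calls more than any other library. Without it, limma called 2267 genes (10.9% of those tested) in place of 29 (0.14%), and its part in each result below is given where it changed a call.

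At the level of the gene, no change in the decapping and 5′ decay set passed the test. All 9 genes had a mean of at least 1 RPKM and were tested among 20714 genes by limma on log2(RPKM + 0.1). None had a Benjamini-Hochberg adjusted p under 0.05, against 0.14% of all genes, and none had an unadjusted p under 0.05, against 22.7% of all genes. In the fit, 5 were higher and 4 lower in D391N, beside 42.7% of all genes higher, with log2 fold changes between -0.27 and 0.37. Their median was 0.11, beside -0.09 over all genes tested. The 95% intervals of the 9 differences lay between -0.81 and 0.74. A change of more than 2-fold in either direction was thus outside the interval of each gene sum. In the fit over class sums described below, added after seeing the data, the protein coding intervals of DCP1A (-1.15 to -0.22) and LSM1 (-0.06 to 1.45) reached past 2-fold. The groups did not overlap for 2 of the 9 genes (22.2%), DCP2 and EDC3, while 31.2% of all genes had groups without overlap. In bulk RNA, fewer cells with a transcript and less of it per cell cannot be told apart.

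**Figure D1:**
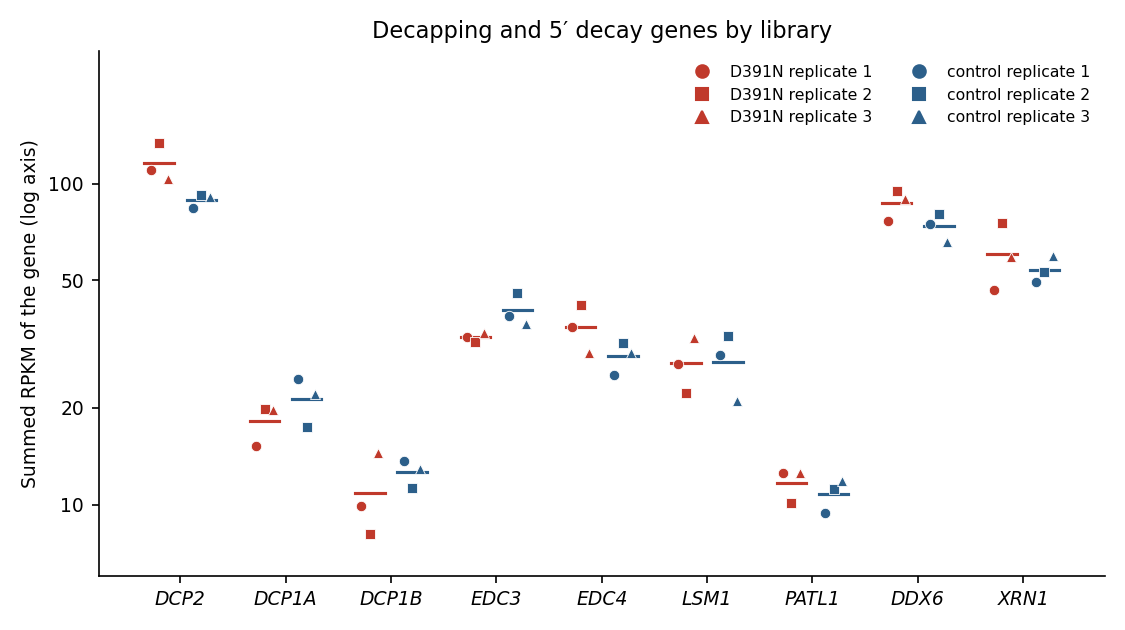
Summed RPKM of each of the 9 genes on a log axis, with 1 point per library (red, D391N; blue, control; the marker gives the replicate) and a bar at the mean of each group of 3 libraries. DCP2 is higher in every D391N library and EDC3 is lower in every D391N library, and the groups overlap for the other 7 genes.

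DCP2 (ENSG00000172795; GRCh37 chr5:112312399-112357892, + strand), the hydrolase that cuts the cap, had the highest level of the 9. Its summed level was 110.4, 133.8 and 103.6 RPKM in the D391N libraries, in the order of their replicate numbers as everywhere below, and 84.2, 92.5 and 91.3 RPKM in the control libraries. Every D391N library was above every control library. The log2 fold change was 0.37 ± 0.16 (SE), with an adjusted p of 0.224 by limma and an exact permutation p of 0.10, the smallest that 3 libraries against 3 can give (two-sided). When each transcript was weighted by its length, a setting chosen after seeing the data, the difference was 0.16. With the leading transcript, DCP2-202, in place of the sum it was -0.36, and neither passed the test.

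EDC3 (ENSG00000179151; chr15:74922899-74988633, - strand), a scaffold that binds DCP2 and DDX6, was the other gene whose groups did not overlap. It was at 33.3, 32.1 and 34.2 RPKM in D391N and at 38.8, 45.8 and 36.4 RPKM in control libraries. The D391N libraries were all lower, and the log2 fold change was -0.27 ± 0.14 (SE, limma adjusted p = 0.296). EDC4 (ENSG00000038358; chr16:67906955-67918402, + strand), a large scaffold of metazoan decapping, was at 35.7, 41.7 and 29.6 RPKM in D391N and at 25.3, 31.9 and 29.8 RPKM in control libraries. Replicate 3 of D391N fell inside the control range, and the log2 fold change was 0.29 ± 0.18 (SE, limma adjusted p = 0.366). With the leading transcript in place of the sum it was -0.22.

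DCP1A (ENSG00000272886; chr3:53317449-53381613, - strand) and its paralogue DCP1B (ENSG00000151065; chr12:2055219-2113701, - strand) encode alternative forms of the DCP2 activator. DCP1A was at 15.2, 19.8 and 19.8 RPKM in D391N and at 24.6, 17.4 and 22.1 RPKM in control libraries. DCP1B was at 9.92, 8.11 and 14.5 RPKM in D391N and at 13.7, 11.3 and 12.9 RPKM in control libraries. Both sets of groups overlapped, with log2 fold changes of -0.22 ± 0.19 and -0.25 ± 0.23 (SE, limma adjusted p = 0.519 and 0.554). Summed over transcripts annotated as protein coding only, a setting chosen after seeing the data, the differences were -0.69 for DCP1A and -0.50 for DCP1B. The groups did not overlap for either gene. Neither passed the test, and the smallest adjusted p among the 9 genes with this sum was 0.0600 by limma. With the leading transcript in place of the sum, DCP1B was 0.75 higher in D391N, with overlapping groups. That transcript, DCP1B-204, is a fragment of 598 nt without a defined coding sequence. Its mean over the 6 libraries was 2.76 RPKM, beside 2.72 RPKM for the full-length coding DCP1B-201. DCP1B-201 was lower in every D391N library (log2 fold change -0.97 ± 0.41, SE, limma adjusted p = 0.29). Fewer than 10 estimated reads lay behind both transcripts in some library. No gene of the 9 passed the test with the protein coding sum or with the length-weighted sum, where 5.22% and 3.49% of all genes did.

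The 3 activators that act before the cap is cut showed no common direction. LSM1 (ENSG00000175324; chr8:38020853-38034248, - strand), the subunit that sets the cytoplasmic ring apart from the nuclear one, was at 27.4, 22.2 and 33.1 RPKM in D391N and at 29.3, 33.4 and 21.0 RPKM in control libraries. PATL1 (ENSG00000166889; chr11:59404189-59436510, - strand), which bridges the ring and the decapping proteins, was at 12.5, 10.1 and 12.5 RPKM in D391N and at 9.42, 11.2 and 11.9 RPKM in control libraries. DDX6 (ENSG00000110367; chr11:118618472-118661873, - strand), a DEAD-box helicase of P-bodies, was at 76.3, 95.2 and 89.4 RPKM in D391N and at 75.0, 80.5 and 65.9 RPKM in control libraries. The groups overlapped for all 3 genes. Log2 fold changes were -0.01 ± 0.23 for LSM1, 0.11 ± 0.17 for PATL1 and 0.24 ± 0.16 for DDX6 (SE, limma adjusted p = 0.984, 0.725 and 0.411). The LSM1 value changed sign under several settings, and it was 0.69 over protein coding transcripts alone.

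XRN1 (ENSG00000114127; chr3:142025449-142166904, - strand), which removes the decapped body, was at 46.6, 75.3 and 59.0 RPKM in D391N and at 49.4, 53.2 and 59.4 RPKM in control libraries. The D391N libraries held both the lowest and the highest of the 6 values. The log2 fold change was 0.14 ± 0.20 (SE, limma adjusted p = 0.724), and it was -0.04 without D391N replicate 2.

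Ordered by the mean over the 6 libraries, the summed levels were 103 RPKM for DCP2, 80.4 for DDX6, 57.1 for XRN1, 36.8 for EDC3, 32.3 for EDC4, 27.7 for LSM1, 19.8 for DCP1A, 11.7 for DCP1B and 11.3 for PATL1. Most neighbours in this order had overlapping ranges over the libraries. The exceptions were XRN1 and EDC3, where the lowest XRN1 library (46.6 RPKM) was above the highest EDC3 library (45.8 RPKM), and DCP1A and DCP1B, where the lowest DCP1A library (15.2 RPKM) was above the highest DCP1B library (14.5 RPKM). Within each of the 6 libraries DCP2 was also above DDX6, and DDX6 above XRN1. The remaining neighbours changed order in some library. A sum of RPKM weighs a short transcript as much as a long one, and short annotated fragments carried much of several sums. For DCP2, the transcript with the full coding sequence, DCP2-201, was at 5.17 to 9.77 RPKM, and for EDC4 the full-length EDC4-201 was at 0.307 to 1.80 RPKM.

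The 82 transcripts were of several annotated kinds. GENCODE 44 gave 81 of them a class: 39 were protein coding, 24 retained intron, 11 without a defined coding sequence and 7 targets of nonsense-mediated decay. Only 45 had a mean of at least 1 RPKM and were tested, among 54671 transcripts, and 22 had fewer than 3 estimated reads in every library. Of the 45, 21 were higher and 24 lower in D391N in the fit (45.8% of all transcripts were higher), with a median log2 fold change of -0.04 beside -0.07 over all transcripts tested. None had an adjusted p under 0.05 by limma, where 0.0604% of all transcripts did. At an unadjusted p under 0.05 there were 10 (22.2%), 5 in each direction, beside 17.6% of all transcripts. Groups did not overlap for 14 of the 45 (31.1%), 8 higher and 6 lower. Over all transcripts the share was 25.8%, with 10.1% higher and 15.6% lower.

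**Figure D2:**
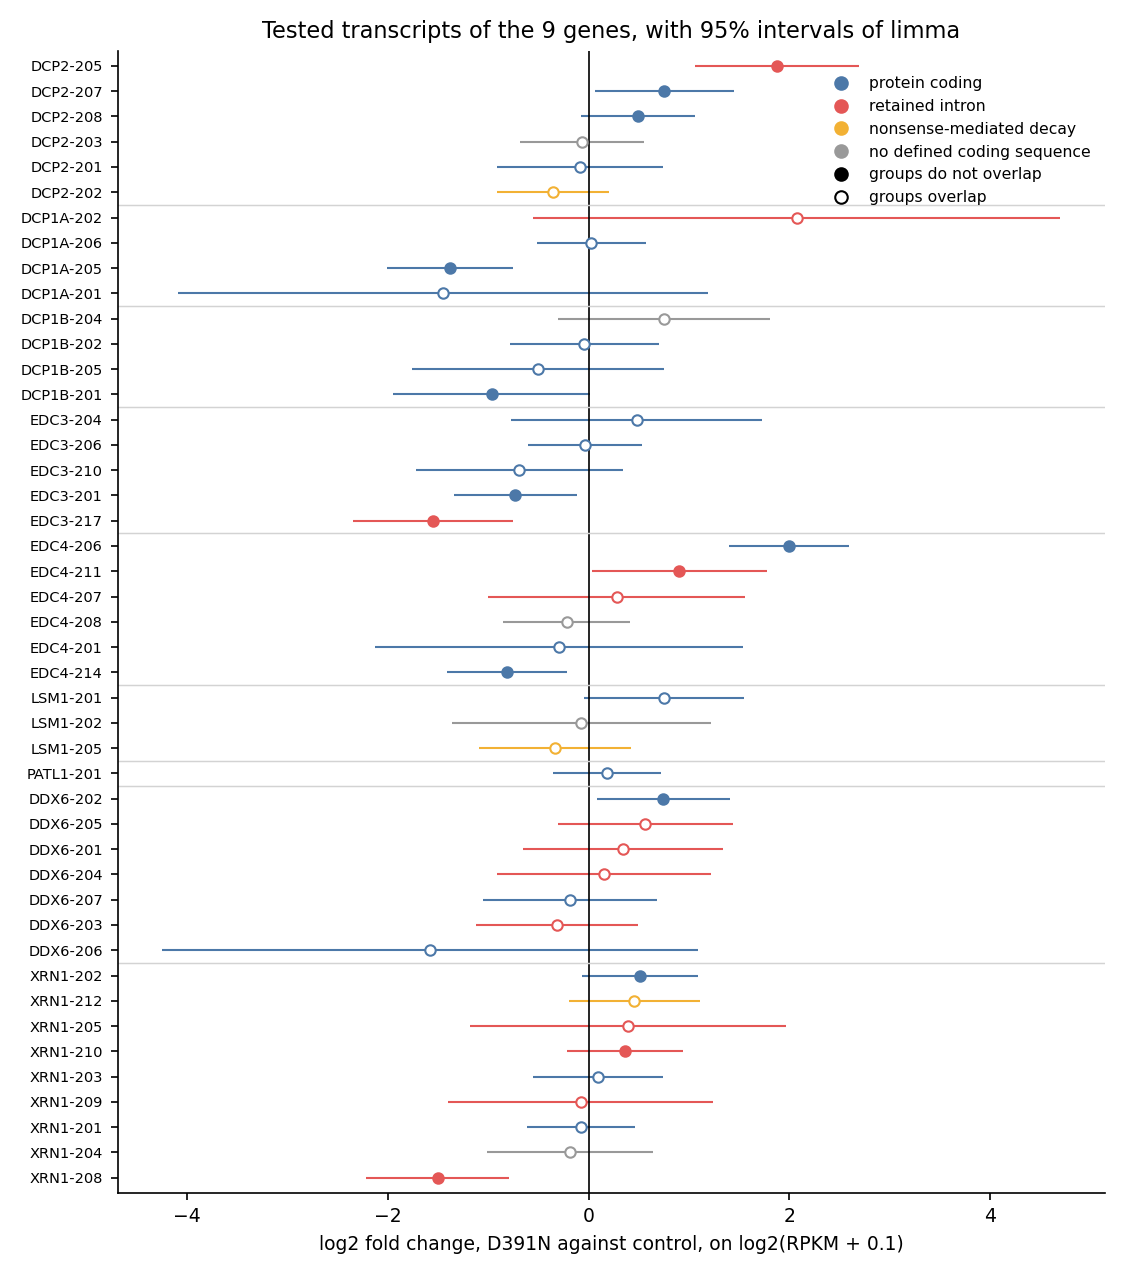
Log2 fold change of the 45 tested transcripts, D391N against control, on the log2(RPKM + 0.1) scale, grouped by gene and coloured by annotated class, with lines for the 95% interval of limma and filled points where the 3 D391N and 3 control values do not overlap. EDC4-206 and DCP2-205 lie farthest to the right among filled points (1.997 and 1.88) and EDC3-217 and XRN1-208 farthest to the left (-1.55 and -1.50).

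A log2 difference of at least 1 without overlap of the groups was found for 5 of the 45 transcripts (11.1%), beside 13.6% of all transcripts. They belonged to 5 different genes, with 2 higher and 3 lower in D391N. None passed the test in the fit over all 6 libraries. All 5 passed when D391N replicate 1 was left out, when 9.08% of all transcripts did. The 5 had been picked for their separation in these same values, so the share over all transcripts is not a like comparison. Their distinguishing sequence is short, so the bases that set each apart from the spliced, full-length mRNA are shown, 30 in each case on GRCh37, 5′ to 3′ on the strand of the gene. Capitals mark intron bases in DCP2-205, XRN1-208 and EDC3-217, and the bases of the downstream exon at an unusual junction in EDC4-206 and DCP1A-205.
EDC4-206: tggggacacaggaatGCGCTGACAGCTGCT
DCP2-205: actttgctaaagctgATATCCTTTTTATTA
DCP1A-205: gacctcacgggccagGAGAAGACTGATATA
XRN1-208: actgtatcacaccagGTAAATTCACTGAGA
EDC3-217: CACCTTCTTTTCCAGgttgaatcccaaaaa

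EDC4-206 (ENST00000573985) is a protein coding fragment of 482 nt that joins exon 25 to exon 28 of 29, leaving out exons 26 and 27. The 30 bases above span that junction, at chr16:67916483-67917485. It was at 7.19, 7.95 and 6.84 RPKM in D391N and at 1.75, 1.48 and 2.09 RPKM in control libraries. The D391N values were close to each other and all above the control values. The log2 fold change was 1.997 ± 0.25 (SE, limma adjusted p = 0.0675), the smallest adjusted p of any transcript of the 9 genes. It rested on 32.5 to 35.4 estimated reads per D391N library and 1.75 to 4.35 per control library, and counting and assignment error alone gave a log2 ratio of 2.06 with a 95% interval of 1.07 to 3.04. EDC4-214, which joins exon 26 to exon 29, went the other way in value, with 3.80, 4.69 and 4.70 RPKM in D391N and 6.75, 9.35 and 7.41 RPKM in control libraries (log2 fold change -0.81 ± 0.25, limma adjusted p = 0.20). Together the pair were at 11.7 ± 0.836 RPKM in D391N and 9.61 ± 1.17 RPKM in control libraries (SD, n = 3).

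DCP2-205 (ENST00000510046) holds exons 1 and 2 of DCP2 and then 24 bases of intron 2, where its annotation stops. The bases above are chr5:112321669-112321698. It was at 33.4, 63.7 and 32.0 RPKM in D391N and at 10.2, 9.62 and 13.8 RPKM in control libraries. Every D391N library was more than 2-fold above every control library. The log2 fold change was 1.88 ± 0.34 (SE, limma adjusted p = 0.104), on 101 to 257 estimated reads per D391N library and 20.4 to 25.8 per control library. The transcript is 369 nt long, and of its 320 windows of 50 bases, the read length, 24 (7.5%) are found in no other transcript of the gene. DCP2-202, a target of nonsense-mediated decay, had the highest mean of the DCP2 transcripts over the 6 libraries, though the D391N mean of DCP2-205 was higher (43.0 against 41.1 RPKM). It was at 48.5, 37.3 and 37.5 RPKM in D391N and at 47.1, 55.4 and 54.6 RPKM in control libraries, with overlapping groups. The summed level of this pair was 84.2 ± 15.9 RPKM in D391N and 63.6 ± 5.65 RPKM in control libraries (SD, n = 3). DCP2-203, which runs from exon 1 into intron 1 and has 84.3% unique windows, was at 2.58, 2.72 and 2.27 RPKM in D391N and at 2.28, 3.00 and 2.67 RPKM in control libraries.

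DCP1A-205 (ENST00000560624), a coding fragment of 849 nt with 7 exons, leaves exon 1 at an earlier position than the canonical transcript. The bases above join exon 1 to exon 2 and span chr3:53378955-53381463. It was at 3.48, 3.98 and 4.13 RPKM in D391N and at 12.9, 8.15 and 9.99 RPKM in control libraries. The D391N values were all lower (log2 fold change -1.38 ± 0.26, limma adjusted p = 0.112). The full-length DCP1A-206, which has 66.9% unique windows against 11.2% for DCP1A-205, was at 6.05, 7.09 and 7.01 RPKM in D391N and at 6.32, 7.35 and 6.10 RPKM in control libraries. Its log2 fold change was 0.03 ± 0.23 (SE, limma adjusted p = 0.960). DCP1A-202, a retained intron transcript of the last 2 exons, was at 0.297 RPKM in D391N replicate 1 and at 7.24 and 5.87 RPKM in replicates 2 and 3, with 0.379 to 0.710 RPKM in control libraries. Replicate 1 of D391N lay below the control range and the others above it, and the difference, 2.07 ± 1.10 (adjusted p = 0.365), became 3.43 (adjusted p = 0.0114 by limma) without replicate 1.

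XRN1-208 (ENST00000470537) holds exons 1 to 3 of XRN1 and 180 bases of intron 3. The bases above are chr3:142145571-142145600. It was at 1.999, 1.36 and 2.47 RPKM in D391N and at 4.89, 6.06 and 5.72 RPKM in control libraries. Fewer than 10 estimated reads lay behind it in some library. The D391N values were all lower (log2 fold change -1.50 ± 0.30, limma adjusted p = 0.117). The full-length XRN1 transcripts, XRN1-201 and XRN1-202, have 1.61% and 0% unique windows and are better read together. Their sum was 9.19, 9.85 and 10.04 RPKM in D391N and 8.24, 8.65 and 8.29 RPKM in control libraries. The sums did not overlap between the groups, though they were less than 1.5-fold apart. This pair was chosen after its values were seen.

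EDC3-217 (ENST00000569606) begins with the last 101 bases of intron 5 and continues through exon 6 into exon 7. The bases above are chr15:74927953-74927982. It was at 0.951, 0.786 and 0.693 RPKM in D391N and at 2.62, 3.18 and 1.97 RPKM in control libraries. The D391N values were all lower (log2 fold change -1.55 ± 0.34, limma adjusted p = 0.130), on 0.517 to 3.55 estimated reads per D391N library and 6.85 to 22.8 per control library. Counting and assignment error alone gave a log2 ratio of -1.66 with a 95% interval of -2.88 to -0.44. The full-length EDC3-201, with 42.4% unique windows, was at 2.17, 1.998 and 2.78 RPKM in D391N and at 4.11, 3.96 and 3.55 RPKM in control libraries. It was lower in every D391N library too (log2 fold change -0.73 ± 0.26, limma adjusted p = 0.232). EDC3-210, a coding fragment of 688 nt, was at 11.1, 3.96 and 6.96 RPKM in D391N and at 11.4, 14.6 and 7.90 RPKM in control libraries. Its groups overlapped (log2 fold change -0.69 ± 0.43, limma adjusted p = 0.433).

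**Figure D3:**
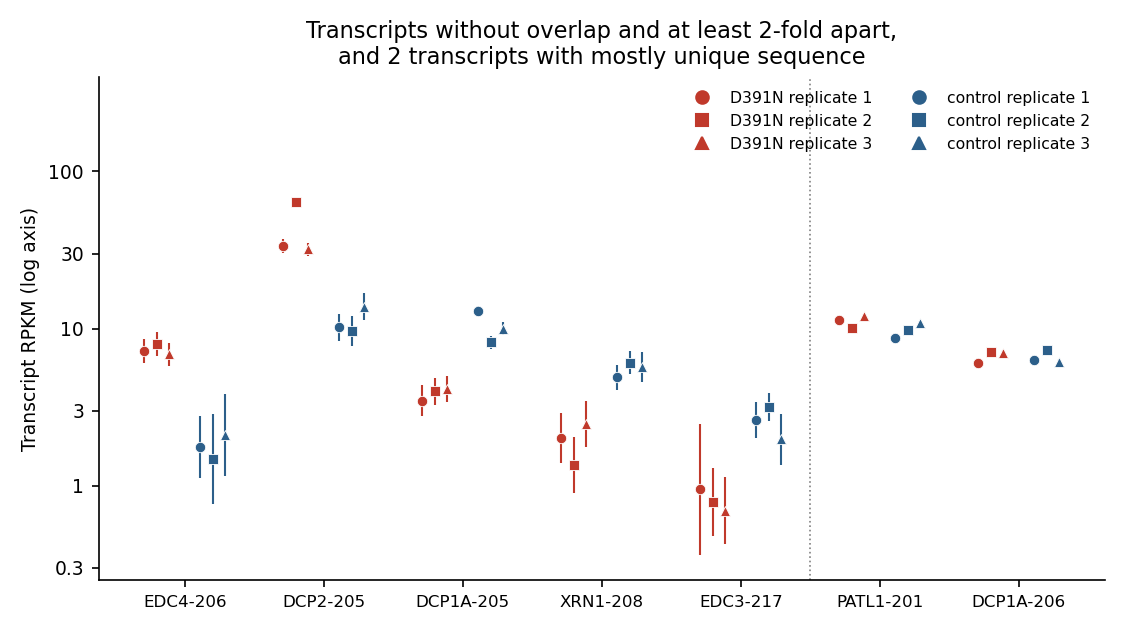
RPKM of 7 transcripts on a log axis, with 1 point per library (red, D391N; blue, control; the marker gives the replicate) and lines for 1 posterior SD of the BitSeq estimate. Left of the dotted line, EDC4-206 and DCP2-205 are higher and DCP1A-205, XRN1-208 and EDC3-217 lower in every D391N library. Right of it, PATL1-201 and DCP1A-206, with 96.6% and 66.9% unique windows, show overlapping groups.

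Among the transcripts of PATL1, DDX6 and LSM1, none passed the test. PATL1-201 (ENST00000300146), the full-length PATL1 mRNA with 96.6% unique windows, was at 11.3, 10.01 and 12.1 RPKM in D391N and at 8.76, 9.79 and 10.9 RPKM in control libraries. The groups overlapped, with a log2 fold change of 0.18 ± 0.23 (SE, limma adjusted p = 0.70). DDX6-202, a coding transcript that ends before the last 2 exons, was at 30.6, 52.4 and 47.1 RPKM in D391N and at 26.2, 26.9 and 22.6 RPKM in control libraries. It was higher in every D391N library (log2 fold change 0.75 ± 0.28, limma adjusted p = 0.248), and without D391N replicate 1 it was 0.98 higher with an adjusted p of 0.0497. The full-length DDX6-206 was at 0.507 RPKM in D391N replicate 1 and between 10.5 and 16.5 RPKM in the other 5 libraries, while DDX6-207, which shares all of its windows with other DDX6 transcripts, was highest in that same library at 29.5 RPKM. The sum of the pair was 29.98, 24.7 and 31.9 RPKM in D391N and 36.2, 39.4 and 30.9 RPKM in control libraries, with no library set apart. LSM1-201, the full-length LSM1 mRNA, had no unique window and was at 5.78, 8.89 and 8.37 RPKM in D391N and at 6.38, 4.18 and 3.28 RPKM in control libraries, with overlapping groups.

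By class, the retained intron transcripts had the highest median difference among the tested transcripts of the 9 genes. Of the 13 tested, 9 were higher in D391N, with a median log2 fold change of 0.34 beside 0.0003 over 9350 retained intron transcripts of all genes, of which 50.1% were higher. Groups did not overlap for 5 of the 13, and for 21.8% of the 9350. The 5 went in both directions, with DCP2-205 and EDC4-211 among the higher and EDC3-217 and XRN1-208 among the lower. Of 24 tested protein coding transcripts, 10 were higher and the median was -0.06, beside -0.10 over 24452, of which 44% were higher. The libraries were made from rRNA-depleted total RNA, which includes unspliced pre-mRNA, and the amount of pre-mRNA in each library was not measured.

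Summed by class within each gene, a result added after seeing the data, the DCP2 retained intron class was at 34.2, 64.0 and 32.7 RPKM in D391N and at 10.9, 10.8 and 14.7 RPKM in control libraries. The D391N libraries were all higher, by 1.78 ± 0.30 on the log2 scale (limma adjusted p = 0.0600 over 24581 class sums, of which 0.334% had an adjusted p under 0.05). The EDC4 class of 9 retained intron transcripts was at 14.8, 20.4 and 10.1 RPKM in D391N and at 7.42, 9.52 and 9.79 RPKM in control libraries. It did not overlap either (0.71 ± 0.28, limma adjusted p = 0.212). The EDC3 class was lower, at 1.12, 1.22 and 1.20 RPKM in D391N against 3.57, 4.24 and 2.49 RPKM in control libraries (-1.44 ± 0.27, limma adjusted p = 0.0807). The DDX6 and XRN1 classes overlapped, with log2 differences of 0.14 ± 0.25 and -0.07 ± 0.29. Without D391N replicate 1, where 11.3% of all class sums passed, those of the DCP2, EDC3 and DCP1A retained intron classes did too. These 3 classes largely repeat transcripts described above. DCP2-205 had a mean of 43.0 of the 43.6 RPKM of its class in D391N and 11.2 of 12.1 RPKM in control libraries. EDC3-217 had 0.81 of 1.18 RPKM and 2.59 of 3.43 RPKM, and the DCP1A class was DCP1A-202 alone. The coding class of DCP1A was at 13.7, 11.4 and 13.0 RPKM in D391N and at 24.0, 16.8 and 21.2 RPKM in control libraries, without overlap (-0.69 ± 0.20, limma adjusted p = 0.137).

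**Figure D4:**
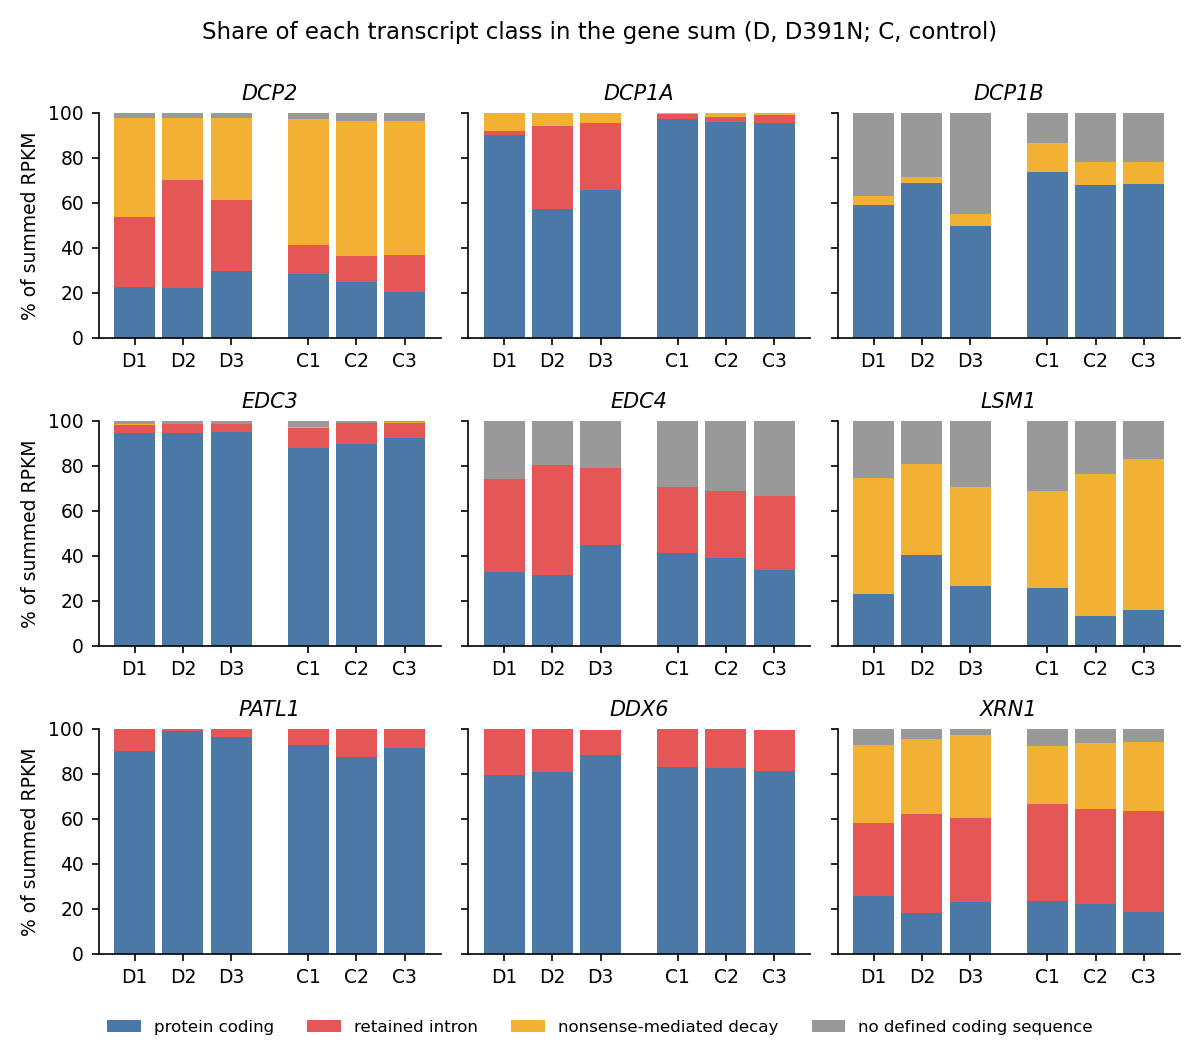
Percent of each gene's summed RPKM in protein coding (blue), retained intron (red), nonsense-mediated decay (yellow) and other transcripts without a defined coding sequence (grey), with 1 bar per library (D1 to D3, D391N; C1 to C3, control). In DCP2 the red share is 31.0%, 47.8% and 31.6% in D391N and 13.0%, 11.6% and 16.1% in control libraries, and in DCP1A it is wide in D391N replicates 2 and 3 only.

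The bases at which DCP2-205 enters intron 2 differ from those of most introns. Introns of the major spliceosome nearly always begin with GT, and those of the minor, U12-dependent spliceosome often begin with ATATCCTT or GTATCCTT. Over 22948 boundaries at which annotated retained intron transcripts run from a canonical exon into at least 8 intron bases, 98.6% of the introns began with GT and 0.536% with either of those 8-base starts, read on the transcript strand. DCP2-205 was 1 of the 38 with ATATCCTT, and EDC4-211, which runs from exon 22 of EDC4 into intron 22, was 1 of the 85 with GTATCCTT. EDC4-211 (ENST00000575514) was at 7.30, 13.4 and 5.67 RPKM in D391N and at 3.94, 5.22 and 3.997 RPKM in control libraries. It was higher in every D391N library (log2 fold change 0.90 ± 0.37, limma adjusted p = 0.272). No other such boundary in the 9 genes had either start.

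Over all genes, 54 tested retained intron transcripts entered an intron with either start, DCP2-205 and EDC4-211 included. Of these 54, 28 were higher and 26 lower in D391N, with a median log2 fold change of 0.07. D391N was higher without overlap for 9 (16.7%), DCP2-205 and EDC4-211 among them, and lower without overlap for 3 (5.56%). For 5920 tested retained intron transcripts that entered other introns, the shares were 9.81% higher and 12.1% lower, with a median of 0.01. None of the 54 passed the test. This grouping was chosen after the DCP2-205 boundary had been seen, a match of letters is not evidence of how an intron is spliced, and whether these sets differ was not tested.

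The composition of the genes was also read from the share of the leading transcript, the one with the highest mean RPKM. For 6 of the 9 genes the shares did not overlap between the groups, beside 22.1% of 14174 tested genes with at least 2 transcripts. In the leading transcripts of these 6 genes, between 4.14% (EDC4-208) and 14.6% (DCP1B-204) of the windows were unique. Their shares thus depend on how BitSeq divided shared reads, and the effect of that was not tested. Each of the 6 came with a two-sided exact permutation p of 0.10, the smallest possible, and 0.15 after Benjamini-Hochberg adjustment over the 9 genes. DCP1A-205 took 22.9%, 20.1% and 20.9% of DCP1A in D391N and 52.2%, 46.7% and 45.2% in control libraries. DCP2-202 took 43.96%, 27.9% and 36.3% of DCP2 in D391N and 56.0%, 60.0% and 59.8% in control libraries. Both were lower in every D391N library, as was EDC4-208 with 22.1 ± 3.26% against 31.4 ± 2.03% (SD, n = 3). DCP1B-204 took 31.4 ± 7.65% against 15.6 ± 4.92%, DDX6-202 took 49.3 ± 7.97% against 34.2 ± 0.761% and XRN1-212 took 34.5 ± 1.40% against 27.6 ± 2.16%, all higher in D391N. For EDC3-206, LSM1-205 and PATL1-201 the shares overlapped.

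Genes that work with these factors were counted in 7 lists. None held a gene past the test in the fit over all genes, in which 0.14% were. Of the 6 LSM1-LSM7 ring partners, 3 were higher and 3 lower, with a median log2 fold change of 0.07, and of 12 tested decapping co-factors and P-body proteins 7 were higher and 5 lower, with a median of 0.12. Of 6 other decapping, cap-scavenging and 5′-to-3′ enzymes 3 were higher (median 0.07), and of 13 factors that recruit decay machinery 6 were higher (median -0.10). Of 14 deadenylases 8 were higher (median 0.16), of 15 exosome and SKI genes 9 were higher (median 0.14), and all 5 cap and poly(A) binding genes were higher (median 0.27). Over the 7 lists, the smallest adjusted p belonged to TTC37, a subunit of the SKI complex that feeds RNA to the exosome. It was at 188, 201 and 184 RPKM in D391N and at 119, 115 and 100 RPKM in control libraries, without overlap (log2 fold change 0.78 ± 0.15, limma adjusted p = 0.0832). CNOT7, a catalytic subunit of the CCR4-NOT deadenylase, was at 70.9, 75.6 and 75.8 RPKM in D391N and at 43.1, 53.9 and 41.5 RPKM in control libraries, also without overlap (0.69 ± 0.15, limma adjusted p = 0.0980). LSM14B, a P-body protein that binds DDX6, was lower at 18.3, 16.3 and 19.2 RPKM against 24.2, 23.5 and 24.0 RPKM (-0.42 ± 0.13, limma adjusted p = 0.150). EXOSC5, a subunit of the exosome ring, was lower at 9.34, 7.51 and 8.11 RPKM against 13.0, 13.2 and 10.5 RPKM, without overlap as well (-0.55 ± 0.17, limma adjusted p = 0.144).

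The genes with the pattern most like that of DCP2 over the 6 libraries were PAFAH1B2 and ENSG00000271383, which has no symbol in the tables used. Their Euclidean distances on centred log2 levels were 0.0599 and 0.0746, beside a median of 0.962 over 20713 genes. For XRN1 they were THRAP3 and DSP, at 0.107 and 0.118. These distances describe 6 libraries that share the same 2 lines.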

How the data were processed

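RNA-seq of 3 D391N and 3 control HEK293 libraries was analysed. The authors depleted rRNA, sequenced single-end reads of 50 bases, removed adapters with cutadapt, used Segemehl to align to Ensembl transcripts (genome build hg38, per the labels) and estimated levels with BitSeq. Versions are not given in the sources used here. For each transcript and library, the deposited values are a BitSeq posterior mean on the natural log scale of RPKM and the variance of that estimate. The authors' differential analysis was not repeated, because it needs posterior samples.

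Values were exponentiated to RPKM and summed per gene. Features whose mean reached 1 RPKM were tested on log2(RPKM + 0.1), which shrinks differences of low features, with limma 3.58.1 under R 4.3.3 (moderated variances, trend on). The p-values were adjusted by Benjamini-Hochberg over all features tested (threshold 0.05). Tables and plots used Python 3.11.15, pandas 2.3.3, numpy 2.4.6, scipy 1.17.1 and matplotlib 3.10.9. Reads per transcript were estimated from the posterior variance and cover counting and assignment error only. Fewer than 3 was taken as the floor. On simulated data, 23% of gene sums with a log2 change of 1 were called and 83% of those with a change of 3, with 5 false calls. For transcripts these were 0% and 29%, with 0 false calls.

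Classes, exons and sequences came from GENCODE 44 on GRCh37, matched by transcript identifier, for 90.2% of all transcripts. That build differs from the authors', and no coordinate was converted. Unique windows were counted among the annotated transcripts of the same gene only. Whether replicate numbers pair the libraries was checked before the fits were compared. Deviations of same-numbered libraries correlated at 0.07, 0.22 and -0.11. These values gave no clear sign of pairing but cannot exclude it. The study's methods mention RNA-seq libraries multiplexed in a shared lane without saying which ones.

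Members and lists were chosen with earlier results of these data known. The transcripts named are, per gene, the 2 with the highest mean level, any past the threshold, and any with a log2 difference of at least 1 and no overlap. Each related list gave the gene with the smallest p in each direction, of which 4 are described. DCP1A-202, DCP2-201, DCP2-203, DDX6-206, EDC3-201, EDC4-201, EDC4-214 and the full-length XRN1 transcripts were chosen after their values were seen. Alternatives covered the pseudocount, filters, scaling, a replicate block, limma without trend, the leading transcript in place of the sum and each library left out.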

Additional observations from a re-analysis of the deposited data

How the results depend on the processing

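No gene of the 9 passed the test under any alternative run. The number of their transcripts that passed was 1 with a pseudocount of 1 (EDC4-206, adjusted p = 0.049 by limma) and lay between 0 and 7 when each library was left out. The 7 came without D391N replicate 1, and they were EDC4-206, DCP2-205, DCP1A-205, XRN1-208, EDC3-217, DCP1A-202 and DDX6-202. The cause was not tested. Over all genes, 29 calls became 16 and 61 with pseudocounts of 0.01 and 1, 18 without a filter, 6 with a mean of at least 5 RPKM, 14 with median centring, 17 with quantile normalization, 18 with the leading transcript in place of the sum, 593 over protein coding transcripts, 646 with sums weighted by length and 2 to 2267 with each library left out. Over all transcripts, 33 calls became 142 with a pseudocount of 1, 18 without a filter, 17 with a mean of at least 5 RPKM, 52 without the variance trend and 2 to 4984 with each library left out. The protein coding and length-weighted sums, the class sums and a filter on estimated reads were chosen after seeing the data.

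Leaving out each library gave 0 to 1 calls among the 6 LSM1-LSM7 partners, 0 to 1 among 14 deadenylases and 0 to 2 among 15 exosome and SKI genes. The highest came each time without D391N replicate 1, where 10.9% of all genes were called. The sum over protein coding transcripts gave 1 in the last list, where 5.22% of all genes passed with that sum. The median over the 9 genes was 0.33 with median centring, which moved the median of all genes from -0.09 to 0.13. It was -0.035 with the leading transcript, 0.19 over protein coding transcripts, 0.054 with sums weighted by length and 0.038 to 0.16 with each library left out.

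These log2 differences changed sign, and none passed the test in either direction. With the leading transcript alone, DCP2 was at -0.36, DCP1B at 0.75 and EDC4 at -0.22. LSM1 was at 0.21 with median centring, 0.031 with quantile normalization, 0.69 over protein coding transcripts, 0.054 weighted by length and -0.20 to 0.13 with each library left out. DDX6 was at -0.018 weighted by length, and XRN1 lay between -0.037 and 0.31 with each library left out. Leaving out libraries also took DCP1A-206 from -0.024 to 0.11, DDX6-207 from -0.48 to 0.17, EDC3-206 from -0.14 to 0.078, XRN1-209 from -0.65 to 0.47, the DDX6 retained intron sum from -0.033 to 0.38 and that of XRN1 from -0.35 to 0.20. With median centring, EDC3-206 was at 0.035 and the XRN1 retained intron sum at 0.015. The PATL1 share over transcripts of at least 1 RPKM had no value, because 1 transcript was left.

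The replicate block, fitted although the numbers share no known source, gave 2 calls over all genes and 7 over all transcripts, and 0 among the 9 genes and their transcripts, where the smallest adjusted p values by limma were 0.348 and 0.183. It changed no other call. In 3 of the 5 transcripts that were at least 2-fold apart, some library had fewer than 10 estimated reads.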
